A study of Triticum aestivum with 6 samples.

Results

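A small set of probes on the wheat array was annotated as SQUAMOSA PROMOTER BINDING PROTEIN-LIKE (SPL) genes in the study, and their signals were described in crown tissues of 3 synthetic hexaploid wheat lines. The probes are rwhoh17n20, MUGEST2003_23lib_Contig14620_504 and wheat0130Contig8035, and they are 3 of the 37826 non-control probes of the array. They were found on the array by their names, and no signal was used to find them here. The study named them because their signals were lower in one of the dwarf lines on the same arrays, so that this comparison is given below as a description only. In that line, crt/KU-2025, all 3 signals were lower than in the other 2 lines, while in the dwarf line Ldn/KU-2025 none of them differed from the wild-type line by more than 1.35-fold.

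SPL proteins are plant transcription factors that bind DNA through the SBP domain, named after the SQUAMOSA promoter to which the first of them were found to bind. Many SPL mRNAs carry a site for the microRNA miR156, which lowers their amounts in young plants, and in *Arabidopsis* the rise of SPL proteins as miR156 declines promotes the passage to the adult phase and to flowering through MADS-box genes of the AP1, FUL and SOC1 groups. In rice, OsSPL14 restrains the outgrowth of tillers, the side shoots that arise in the crown. The crown is the base of the shoot and contains the shoot apical meristem.

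Each line was measured on 2 arrays, labelled replicates 1 and 2. Synthetic hexaploids are made by crossing tetraploid wheat, the source of the A and B genomes, with the wild grass *Aegilops tauschii*, the source of the D genome. The wild-type line (WT) has the durum wheat Langdon (Ldn) as its tetraploid parent and *Ae. tauschii* KU-2059 as the other. Ldn/KU-2025 keeps Langdon and carries *Ae. tauschii* KU-2025, and crt/KU-2025 carries the same *Ae. tauschii* but takes its A and B genomes from *T. turgidum* subsp. *carthlicum*. Both KU-2025 lines are grass-clump dwarfs with many tillers. Crowns were taken from plants of 8 weeks kept at 24°C with a day of 18 h of light and 6 h of dark. Line crt/KU-2025 thus differs from WT in both parents, and its arrays were alone on slide 2 while the other 4 were on slide 1, so that line, tetraploid parent and slide cannot be told apart. Whether the 2 arrays of a line came from separate plants is not stated beyond 2 independent experiments, and the p-values measure the spread between these arrays only. In bulk tissue, fewer cells of a type and less RNA per cell cannot be told apart. Hexaploid wheat holds near-identical copies of most genes in its 3 genomes, and which copies each probe binds is not given in the sources used here.

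All signals are Cy3 intensities processed by the scanner software and scaled by the authors to a common trimmed mean of 2500. Of all probes, 75.1% to 77.6% were well above background on an array, 0 were saturated, and the dimmest such probe of an array had a scaled signal of 23.9 to 27.9. Probe brightness depends on the probe, and the levels of different probes were not compared with each other.

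The largest difference among the SPL probes was at wheat0130Contig8035. Its scaled signal was 11369 and 11426 on the WT arrays, 10882 and 10268 on the Ldn/KU-2025 arrays, and 78.0 and 74.0 on the crt/KU-2025 arrays. Both Langdon lines were bright, and crt/KU-2025 was dim but still well above background on both arrays, so that the ratio was measured and not bounded. The mean was 11398 ± 40.4 (SD, n = 2) in WT. It was 10575 ± 435 (SD, n = 2) in the Langdon dwarf line and 76.0 ± 2.83 (SD, n = 2) in the *carthlicum* dwarf line. The WT mean was 150-fold above the crt/KU-2025 mean on the log2 scale, and the 4 ratios of single crt/KU-2025 arrays to single WT arrays lay between -7.27 and -7.19 in log2. With normexp background correction, which adds an offset of 50 to every signal, the log2 ratio was -5.95 in place of -7.23, and the probe kept its call.

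At rwhoh17n20, the scaled signal was 2694 and 2650 on the WT arrays, 2922 and 2823 on the Ldn/KU-2025 arrays, and 641 and 616 on the crt/KU-2025 arrays. The probe was well above background everywhere, the arrays of the Langdon lines lay close together, and the crt/KU-2025 arrays lay apart from the other 4. On average it was 2672 ± 30.8 (SD, n = 2) in WT, against 2872 ± 69.9 (SD, n = 2) for Ldn/KU-2025 and 628 ± 17.7 (SD, n = 2) for crt/KU-2025. The signal of crt/KU-2025 was 4.25-fold lower than that of WT, far less than the fall at wheat0130Contig8035, and the single-array ratios of the probes did not overlap (-2.13 to -2.05 in log2 here).

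The third probe, MUGEST2003_23lib_Contig14620_504, was dim in all lines. Its scaled signal was 38.2 and 37.4 on the WT arrays, 49.8 and 52.6 on the Ldn/KU-2025 arrays, and 5.50 and 8.20 on the crt/KU-2025 arrays. It was well above background on the 4 arrays of the Langdon lines and on 0 of the 2 arrays of crt/KU-2025. The error that the scanner software gave for the spot was 18.1% and 18.9% of the processed signal on the WT arrays, 14.4% and 13.9% on the Ldn/KU-2025 arrays, and 99.6% and 65.3% on the crt/KU-2025 arrays. The crt/KU-2025 values therefore set only a limit. Line means were 37.8 ± 0.566 (SD, n = 2) for WT, 51.2 ± 1.98 (SD, n = 2) for Ldn/KU-2025 and 6.85 ± 1.91 (SD, n = 2) for crt/KU-2025. With the crt/KU-2025 arrays held at their lowest detected signal, their mean was at least 1.51-fold below that of WT and at least 2.05-fold below that of Ldn/KU-2025.

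**Figure D1:**
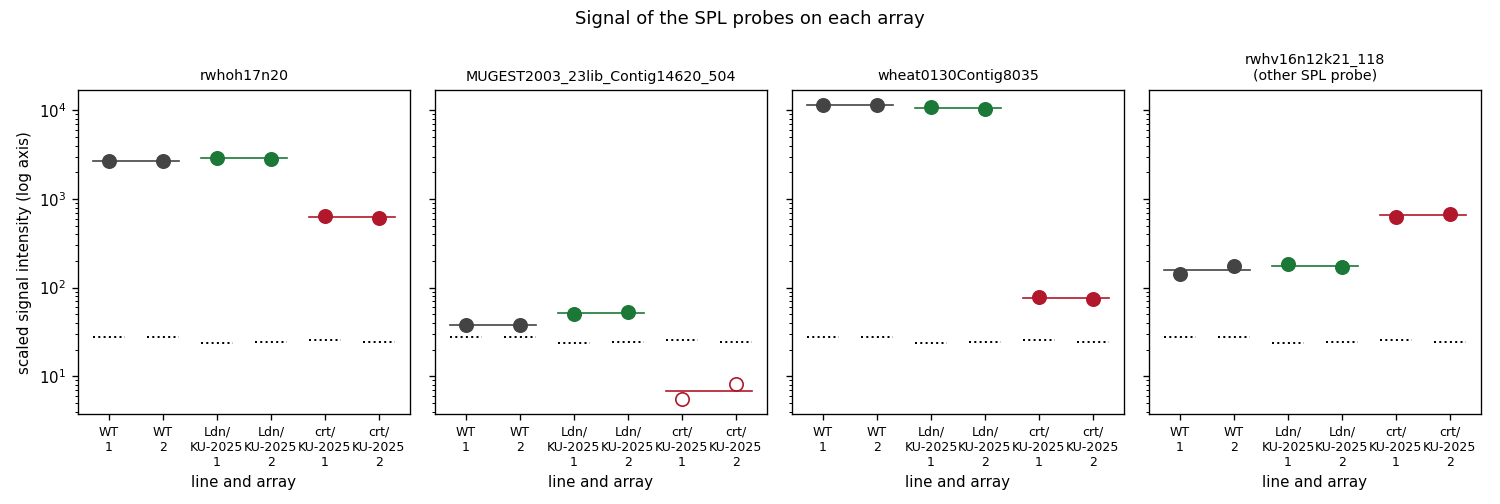
Scaled signal intensity (log axis) of the 3 SPL probes and of the other SPL-annotated probe, rwhv16n12k21_118, on each of the 6 arrays, by line and replicate. Filled points were well above background, open points were not, horizontal lines are line means, and dotted marks give the lowest signal well above background on that array. The first 3 probes are lower on both crt/KU-2025 arrays than on the other 4, with the second below the detection marks there, and rwhv16n12k21_118 is higher.

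Comparing Ldn/KU-2025 with WT holds the tetraploid parent and the slide constant and asks whether the SPL signals differed in a dwarf line with the Langdon genomes. The WT arrays also entered the choice of the probes. The call rule was a change of at least 3-fold with an adjusted p under 0.05 from limma with Benjamini-Hochberg adjustment over all probes. By it, 0 of the 3 SPL probes were called up and 0 were called down, where 0.968% of all probes were called up and 0.196% down. At an unadjusted limma p under 0.05 the count was also 0 of 3, beside 11571 of all 37826 probes. At rwhoh17n20, the log2 ratio was 0.10 (SE 0.06), and its 95% interval ran from -0.07 to 0.27 (limma, Benjamini-Hochberg adjusted p = 0.338). The interval at wheat0130Contig8035 ran from -0.29 to 0.08 around a log2 ratio of -0.11 (adjusted p = 0.358 in the same limma fit). At both probes a difference as large as the 3-fold threshold lay outside the interval in either direction.

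The dim probe MUGEST2003_23lib_Contig14620_504 was brighter on both Ldn/KU-2025 arrays than on either WT array. Its log2 ratio was 0.44 (SE 0.21), a 1.35-fold difference, and the 95% interval ran from -0.13 to 1.003 (limma, Benjamini-Hochberg adjusted p = 0.247). The standard error is shared by the 3 lines. The 2 arrays of crt/KU-2025 differed by 0.58 in log2 at this probe, against 0.03 between the WT arrays and 0.08 between the Ldn/KU-2025 arrays, and a limma fit of these Langdon lines alone (4 arrays) reduced the standard error to 0.05, with an adjusted p of 0.0206. In both fits the difference was below the 3-fold rule.

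Between the dwarf lines, which share *Ae. tauschii* KU-2025, all 3 SPL probes were called lower in the *carthlicum* line, crt/KU-2025. Over all probes, 9.98% were called lower and 9.39% higher in this comparison. It shares the crt/KU-2025 arrays with the comparison that singled out the probes, and is not independent of that choice. The log2 ratio was -7.12 (SE 0.07) at wheat0130Contig8035 (limma, Benjamini-Hochberg adjusted p = 2.5e-05). It was -2.19 (SE 0.06) at rwhoh17n20 (adjusted p = 1.2e-04 from the same limma fit). At MUGEST2003_23lib_Contig14620_504 the fitted log2 ratio was -2.93 (limma SE 0.21, adjusted p = 7.5e-04), but it rests on crt/KU-2025 signals that were not well above background. With signals floored at the lowest detected value of each array, the log2 ratio of this probe fell to -1.03, and with normexp background correction to -0.41. In neither case was it called, which left 2 called SPL probes.

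Against WT, the log2 ratios of crt/KU-2025 were -2.09, -2.49 and -7.23 at rwhoh17n20, MUGEST2003_23lib_Contig14620_504 and wheat0130Contig8035, with standard errors of 0.06, 0.21 and 0.07. All 3 passed the call rule in the lower direction, as did 11.0% of all probes, and 11.8% of all probes passed in the higher direction. Nothing is read from this count, since the probes were named for this fall. The ratio at MUGEST2003_23lib_Contig14620_504 was -0.60 with floored signals and -0.35 with normexp. It was not called with either, and neither setting could give a 3-fold call at so dim a probe. The median log2 ratio over all probes was 0.10.

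**Figure D2:**
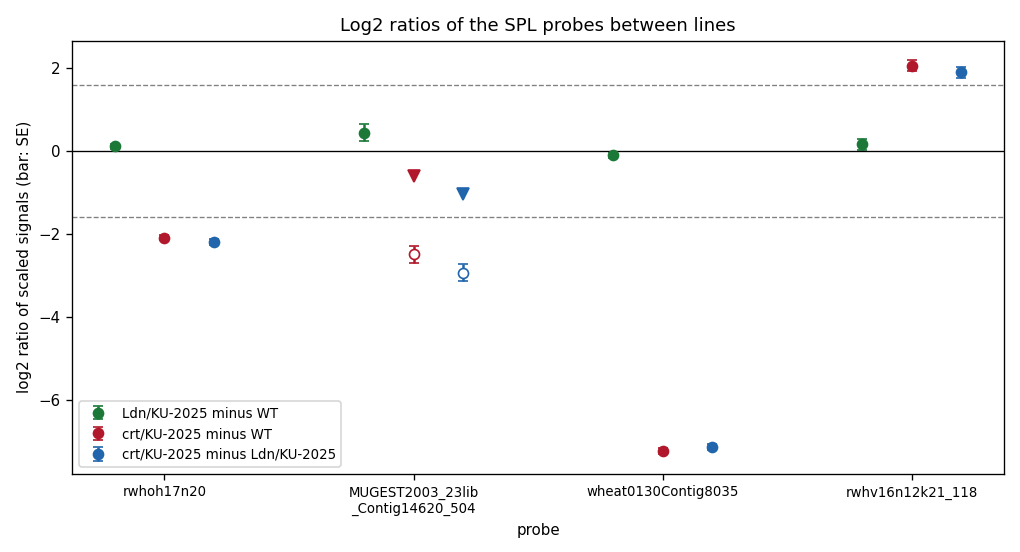
Log2 ratios of scaled signals for the SPL probes in the 3 comparisons of lines, with standard errors as bars and the 3-fold threshold as dashed lines. Open points rest on crt/KU-2025 signals not well above background, and triangles give the smallest fall that their detection limit leaves. The Ldn/KU-2025 minus WT points lie between -0.11 and 0.44, inside the threshold, and rwhv16n12k21_118 lies opposite to the others in crt/KU-2025.

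One more probe, rwhv16n12k21_118, was described as Squamosa promoter-binding 1 in the part of the study's probe lists used here, a list of probes higher in crt/KU-2025 on the same arrays, so that its rise is a description as well. Its scaled signal was 143 and 176 on the WT arrays, 185 and 169 on the Ldn/KU-2025 arrays, and 628 and 684 on the crt/KU-2025 arrays. The Langdon lines overlapped, and both crt/KU-2025 arrays were above them. In crt/KU-2025 against WT the log2 ratio was 2.05 (SE 0.13), a 4.13-fold difference. Against Ldn/KU-2025 it was 1.89 (SE 0.13), and in Ldn/KU-2025 against WT 0.16, with a 95% interval of -0.20 to 0.51 (limma, Benjamini-Hochberg adjusted p = 0.474). With normexp background correction the ratio to WT was 1.35 and the probe was not called. Of the SPL-annotated probes named here, 3 were called lower and 1 higher in crt/KU-2025 against WT, beside 11.0% and 11.8% of all probes. This split follows from the lists they were taken from, and nothing is read from it about the SPL family. The fitted falls differed in size among the 3 that were lower.

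MADS-box genes of the AP1 and FUL group, which specify floral identity and the passage to flowering, and of the SOC1 group, which integrates flowering signals, lie downstream of SPL proteins in *Arabidopsis*. The 6 probes of these groups were taken from the study, which had picked them with these arrays in view, and their counts are no independent evidence of a direction. In Ldn/KU-2025, 2 of the 6 were called up and 0 down against WT (0.968% and 0.196% of all probes), with a median log2 ratio of 0.40 beside -0.02 over all probes. In crt/KU-2025, 1 of 6 was called up and 3 were called down against WT (11.8% and 11.0% of all probes), with a median of -1.88, or -1.78 with the undetected signals at their bounds, beside 0.10 over all probes. Against Ldn/KU-2025, 4 of 6 were called down and 0 up (9.98% and 9.39% of all probes). With normexp, both calls in Ldn/KU-2025 were lost (1.495 at wheat0130Contig5167 and 1.56 at MUGEST2003_23lib_Contig15044_1125), and in crt/KU-2025 against WT so were the rise at wheat0130Contig5167 (0.96) and the falls at wheat0130Contig14238 (-1.13) and wheat0130Contig1725 (-0.75), while rwhfl48m16 stayed called (-2.64).

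The probe wheat0130Contig14238, annotated as *Vrn-A1*, the vernalization gene of the AP1 and FUL group, had scaled signals of 158 and 170 in WT, 179 and 159 in Ldn/KU-2025, and 8.40 and 13.3 in crt/KU-2025. The crt/KU-2025 arrays were not well above background, which made the signal at least 6.56-fold lower than in WT. In Ldn/KU-2025 the log2 ratio was 0.04 and its sign changed with the scaling, to -0.04 at the 75th percentile. At rwhfl48m16, annotated as TaAP1-2, the signals were 678 and 791 in WT, 594 and 582 in Ldn/KU-2025, and 5.90 and 10.8 in crt/KU-2025, again not well above background, and at least 29.3-fold lower than in WT. Ldn/KU-2025 differed from WT by a log2 ratio of -0.32 there (limma adjusted p = 0.545). As at wheat0130Contig8035, crt/KU-2025 lay far below both Langdon lines. The study matched one further probe each to the database records of these genes, and they were added here after their values were seen and enter no count. At rwhf1p23, of the record of rwhfl48m16, the signals were 2809 and 3024 in WT, 1984 and 1987 in Ldn/KU-2025, and 7.5 and 6.9 in crt/KU-2025, where the probe was not well above background. At rwhfl24d04, of the record of wheat0130Contig14238, they were 1565 and 1643, 1377 and 1443, and 46.6 and 72.6, with all arrays well above background and a measured log2 ratio of -4.78 for crt/KU-2025 against WT. Ldn/KU-2025 differed from WT by a log2 ratio of -0.55 at rwhf1p23, under the 3-fold rule. At rwhfl24d04 that ratio was -0.19. No p-value is given for these added probes, because they were picked after their values were seen. TaAP1-3 (wheat0130Contig14728) differed less, with a log2 ratio of -1.29 in crt/KU-2025, under the 3-fold rule, and 0.05 in Ldn/KU-2025, where the sign also changed with the scaling (-0.04 at the 75th percentile). BM5A (wheat0130Contig1725), another AP1-like probe, fell to a bound of at least 4.83-fold below WT in crt/KU-2025 and had a log2 ratio of 0.76 in Ldn/KU-2025 (limma adjusted p = 0.0209).

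The other MADS-box probes had another pattern. At wheat0130Contig5167, described as CAULIFLOWER D-like, the signals were 132 and 122 in WT, 614 and 577 in Ldn/KU-2025, and 373 and 403 in crt/KU-2025. Both dwarf lines lay above WT, with log2 ratios of 2.23 for Ldn/KU-2025 and 1.61 for crt/KU-2025. The rise in Ldn/KU-2025 lost its call without replicate 1 of Ldn/KU-2025 (limma adjusted p = 0.0583). That in crt/KU-2025 was close to the threshold and lost its call without replicate 2 of WT (1.55), without replicate 2 of crt/KU-2025 (1.55), with scaling to the 75th percentile (1.40) and with quantile normalization (1.42). The SOC1-like probe MUGEST2003_23lib_Contig15044_1125, described as MADS56, had signals of 675 and 643 in WT, 2265 and 2385 in Ldn/KU-2025, and 258 and 383 in crt/KU-2025, higher than WT in one dwarf line and lower in the other. Its log2 ratios were 1.82 and -1.07. The first was called (limma adjusted p = 0.0230), but not without any one array of WT or Ldn/KU-2025 (0.136 to 0.148).

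AP2-domain transcription factors include the targets of miR172, a microRNA that rises as miR156 declines, and the AINTEGUMENTA-like group, which acts in meristems. The list used here holds 4 probes that the study annotated as AP2 or AP2-like, and not every probe of the wider family. Of these 4, 0 were called in Ldn/KU-2025 against WT and 3 were called down in crt/KU-2025, beside 0.196% and 11.0% of all probes called down. Their median log2 ratio to WT was -0.21 for Ldn/KU-2025 and -2.36 for crt/KU-2025, beside -0.02 and 0.10 over all probes. The study had listed the 3 called probes among its most lowered transcription factor probes in crt/KU-2025 on these arrays. The count and the median in crt/KU-2025 follow from that choice and are no independent evidence of a direction. The probe rwhyf2e11, annotated as AP2, had scaled signals of 1966 and 1935 in WT, 1031 and 1114 in Ldn/KU-2025, and 110 and 116 in crt/KU-2025. Its arrays formed 3 separate steps, with log2 ratios to WT of -0.86 in Ldn/KU-2025 (limma adjusted p = 0.0146) and -4.11 in crt/KU-2025. The signals of whec14a15_212 (AIL5) and whcs5a15_376 (BBM2-like) were well above background on 1 of the 2 crt/KU-2025 arrays, with log2 ratios of -2.83 and -1.89 against WT. In Ldn/KU-2025 against WT these 2 probes had log2 ratios of -0.27 and -0.15 (limma adjusted p = 0.572 and 0.412). Both of their calls in crt/KU-2025 were lost with normexp (-1.30 and -0.57). The last of them, MUGEST2003_23lib_Contig5735_588, was well above background on 1 of the 6 arrays and carried no call.

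**Figure D3:**
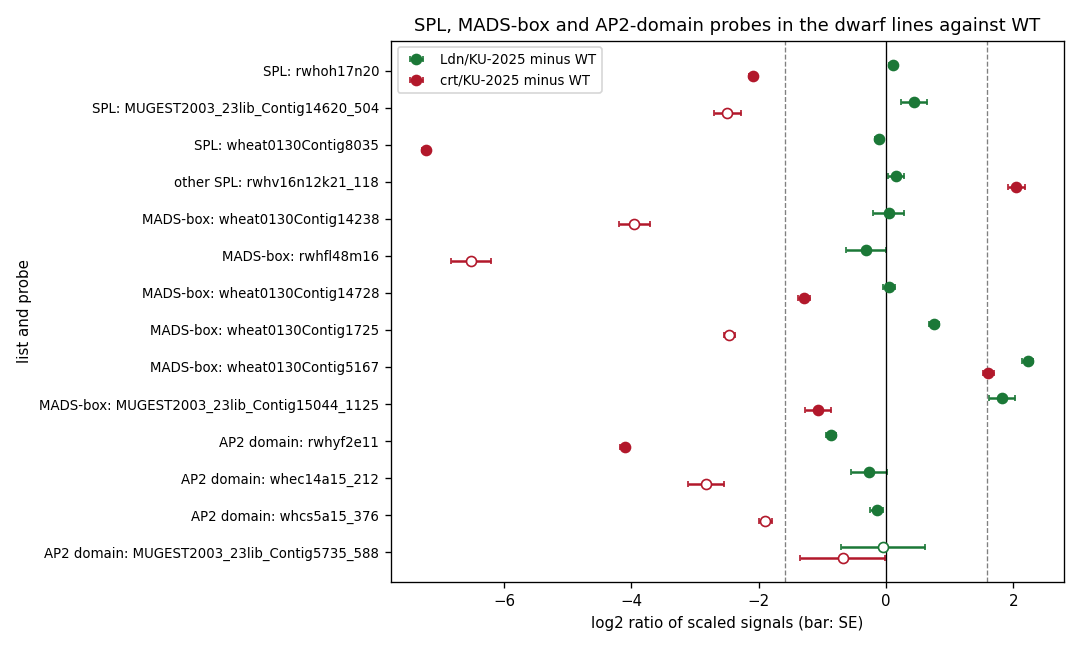
Log2 ratios of the dwarf lines to WT, with standard errors, for the SPL, MADS-box and AP2-domain probes, 1 row per probe, with the 3-fold threshold as dashed lines. Open points involve an array on which the probe was not well above background. The points past the dashed lines are the called ones. Of the 14 probes, 2 were called up in Ldn/KU-2025 and 0 down, beside 0.968% and 0.196% of all probes. In crt/KU-2025 9 were called down and 2 up, beside 11.0% and 11.8% of all probes. The probes were chosen with results of these arrays known, so these counts are a description only.

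The probes with a profile most like each SPL probe were found by the root mean square distance between log2 signals over the 6 arrays, each centred on its own mean, among 30196 probes well above background on both arrays of at least 1 line. For rwhoh17n20, whose signals were measured on every array, these were rwhva11o12_495, wheat0130Contig711 and whfl_allContig489, at distances of 0.03, 0.03 and 0.05, whose crt/KU-2025 signals differed from WT by log2 ratios of -2.08, -2.11 and -2.11. For wheat0130Contig8035 they were MUGEST2003_23lib_Contig5476_754, wheat0130Contig9041 and whfl_allContig757. All 3 were not well above background on either crt/KU-2025 array, at least 35.1-fold, 32.1-fold and 47.3-fold lower than in WT, so that their likeness to it in crt/KU-2025 was not measured. Among the 25864 other probes well above background on all 6 arrays, an alternative added after seeing the data, the nearest to wheat0130Contig8035 were whkp18g06_m_142, rwhr20n23 and MUG012B07R990525, at distances of 0.49, 0.57 and 0.57, and those of rwhoh17n20 were the same 3 as before. For MUGEST2003_23lib_Contig14620_504 the rule gave wheat0130Contig4668, wheat0130Contig2540 and wheat0130Contig10251, but this SPL probe and the first 2 of these were undetected in crt/KU-2025, and the match there has no meaning beyond that. Ranked by Pearson's correlation, which ignores the size of the change, 0 of the 3 probes were kept for rwhoh17n20. No description of these probes was at hand in the sources used here.

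**Figure D4:**
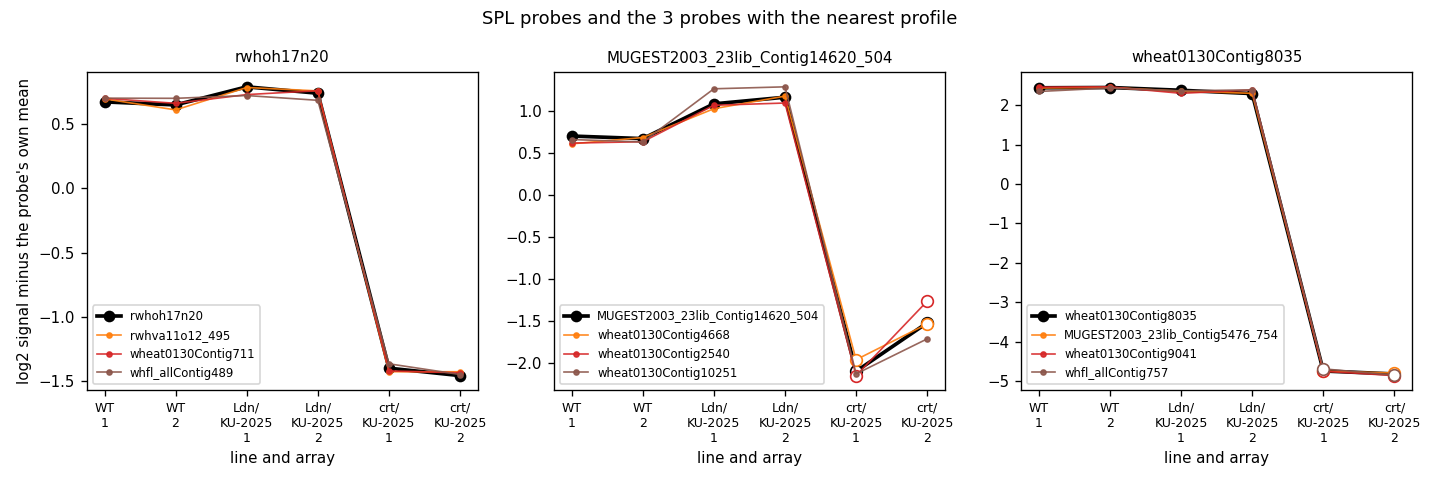
Log2 signal on each array minus the probe's own mean over the 6 arrays, for each SPL probe (black) and the 3 probes with the smallest distance to it. Open points were not well above background and have no measured level. In each panel the lines step down between the Ldn/KU-2025 and the crt/KU-2025 arrays, and the panels have different vertical scales.

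The arrays of crt/KU-2025 differed from each other more than those of the other lines, with an SD of the difference over all probes of 0.78 on the log2 scale, against 0.47 in WT and 0.47 in Ldn/KU-2025. Much larger was their difference at the 20 photosynthesis probes that would mark green leaf tissue, a median of 5.70 in crt/KU-2025 against 0.08 in WT and 0.06 in Ldn/KU-2025. The summed scaled signal of that list was 5533 and 5421 on the WT arrays, 29865 and 30781 on the Ldn/KU-2025 arrays, and 16368 and 181419 on the crt/KU-2025 arrays, with 14 to 20 of the 20 probes well above background. On the same crt/KU-2025 arrays, the difference was 0.06 at rwhoh17n20, 0.08 at wheat0130Contig8035, 0.12 at rwhv16n12k21_118 and 0.58 at the undetected MUGEST2003_23lib_Contig14620_504. All 4 SPL-annotated probes kept their call in crt/KU-2025 against both Langdon lines with either crt/KU-2025 array left out. The leaf list was taken from probes that the study found higher in Ldn/KU-2025 than in WT on these arrays. Its signal above WT on both Ldn/KU-2025 arrays therefore follows from that choice. The SPL signals there were within 1.35-fold of WT. The part of the leaf list in the SPL differences was not tested beyond these values.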

How the data were processed

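Crown RNA of 3 lines was measured on 6 one-color KOMUGI 38k arrays, with lines and replicates from the labels. The authors processed spot intensities with Agilent Feature Extraction (10.7.3.1 in the file headers, 9.5 in the submitters' processing notes), which subtracts background and detrends, and deposited a table of these intensities scaled to 2500 over each array's mean trimmed of 2% at either end. Scaling the deposited intensities again gave nearly the same values, with a median ratio over the probes of an array of 1.0004 to 1.0005. Control spots (1417) were left out.

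The log2 of the scaled intensities of all 37826 probes was fitted with limma 3.58.1 in R 4.3.3 with the 3 lines as groups (3 residual and 1.23 prior degrees of freedom), and p-values were Benjamini-Hochberg adjusted over all probes. The fit was tested on simulated data. Tables and figures used Python 3.11.15, numpy 2.4.6, pandas 2.3.3 and matplotlib 3.10.9. A probe not well above background on both arrays of a line has only a bound, from the brighter line's mean log2 signal and, on each dimmer array, the higher of its own and the lowest detected signal.

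The SPL probes, and the lists of MADS-box, AP2-domain and photosynthesis probes, were chosen with earlier results of these data known. Named probes are the SPL probes, all probes of the SPL, MADS-box and AP2-domain lists, and for each SPL probe the 3 nearest profiles. Descriptions came from the study, since 0 of the probe names were found in the RefSeq gene table. The study's list of probes higher in crt/KU-2025 was held only in part.

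Alternatives were the scanner intensities scaled anew, the 75th percentile, quantile normalization, normexp (offset 50, on median spot signals, because mean signals were not used here), a fit without dim probes, leaving out each array, the replicate number as a block, a fit of the lines compared, the methods' t-test on linear intensities, a 2-fold threshold and, added after seeing the data, a floor at the lowest detected signal and, for the nearest profiles, only probes detected on all arrays. The normexp signals were then scaled to the 75th percentile, so that this setting changes the background, the spot signal and the scaling together. Its offset also shrinks the ratios of dim probes, so that a call lost there can follow from the offset alone. The slide was not fitted as a block, because it coincides with crt/KU-2025. With 2 arrays against 2, an exact permutation test cannot go below 0.333 and was not used. The number of arrays limits the precision.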

Additional observations from a re-analysis of the deposited data

Results flagged for a closer look

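The difference between the dwarf lines met the limma call rule (Benjamini-Hochberg adjusted p under 0.05, fitted change of at least 3-fold) at the 3 SPL probes, as 9.98% of all probes did in the lower direction, while 0 of 3 were called in Ldn/KU-2025 against WT. In log2, crt/KU-2025 minus Ldn/KU-2025 was -2.19 at rwhoh17n20 and -7.12 at wheat0130Contig8035. At MUGEST2003_23lib_Contig14620_504 the fitted value was -2.93, but the signal in crt/KU-2025 was undetected, and it was at least 2.05-fold lower. The call was lost with the floor (-1.03) and with normexp (-0.41), settings that could not give a 3-fold call at so dim a probe. The other SPL probe, rwhv16n12k21_118, had a log2 ratio of 1.89, and it lost its call with normexp (1.335). These SPL probes came from the study's lists of probes lower or higher in crt/KU-2025 on the same arrays. Their calls here share those arrays and are not independent of that choice.

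Among the MADS-box probes the same comparison gave fitted values of -4.00 at wheat0130Contig14238, -6.20 at rwhfl48m16 and -3.22 at wheat0130Contig1725, where the crt/KU-2025 signals were undetected and thus lower by at least 6.75-fold, 23.5-fold and 8.16-fold. The first and the last of them lost their call with normexp (-1.08 and -1.10). At MUGEST2003_23lib_Contig15044_1125 it was -2.89. Among the AP2-domain probes it was -3.24 at rwhyf2e11, and -2.56 at whec14a15_212 and -1.75 at whcs5a15_376, each well above background on 1 crt/KU-2025 array and uncalled with normexp (-0.999 and -0.446). In each of these 11 cases the line, its tetraploid parent and its slide cannot be told apart. With 2 arrays a line, no search for single outlying arrays was made.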

How the results depend on the processing

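The SPL probes kept their direction in all 3 comparisons under all 16 alternatives. Several of these cannot move a log2 ratio and bear only on the call. They are the 2-fold threshold, the replicate block, the fit of the lines compared, the removal of dim probes, and leaving out an array of the line not compared. The calls were lost in 2 settings and at one probe only, MUGEST2003_23lib_Contig14620_504, with normexp background correction (log2 ratio -0.35 in crt/KU-2025 against WT, -0.41 against Ldn/KU-2025) and with signals floored at the lowest detected value (-0.60 and -1.03). Neither setting could give a 3-fold call at so dim a probe, so these losses show its dimness and nothing further. Over all alternatives crt/KU-2025 minus WT lay between -2.31 and -2.01 at rwhoh17n20, between -2.78 and -0.35 at MUGEST2003_23lib_Contig14620_504 and between -7.44 and -5.95 at wheat0130Contig8035 in log2. For Ldn/KU-2025 against WT the ranges were 0.02 to 0.13, 0.06 to 0.48 and -0.20 to -0.07. In crt/KU-2025 against Ldn/KU-2025 the log2 ratios ranged from -2.35 to -2.06 at rwhoh17n20, from -3.22 to -0.41 at MUGEST2003_23lib_Contig14620_504 and from -7.24 to -5.75 at wheat0130Contig8035. This comparison shares the crt/KU-2025 arrays that singled out the probes, and its stability is no independent evidence.

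The sign of Ldn/KU-2025 against WT changed at wheat0130Contig14238 with the 75th percentile (-0.0439), quantile normalization (-0.0301) and normexp (-0.0446), and it ranged from -0.0456 to 0.125 with single arrays left out, negative without WT replicate 1 and without Ldn/KU-2025 replicate 1. At wheat0130Contig14728 it changed with the 75th percentile (-0.036), quantile normalization (-0.00777) and normexp (-0.069). At MUGEST2003_23lib_Contig5735_588 the log2 ratio with single arrays left out ranged from -0.934 to 0.834 for Ldn/KU-2025 and from -1.56 to 0.204 for crt/KU-2025, both positive without WT replicate 2, and crt/KU-2025 against Ldn/KU-2025 turned positive with normexp (0.103) and with the floor (0.0227). These probes were uncalled where the sign changed, and the cause was not tested.

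Scaling to the 75th percentile moved the median log2 ratio of all probes in crt/KU-2025 against WT from 0.10 to -0.11. It changed the calls over all probes from 4464 up and 4155 down to 3683 and 4862. Normexp gave 1967 and 2557, the methods' t-test 2581 and 3015, and a 2-fold threshold 7851 and 6147. Same-numbered arrays showed no common deviation over all probes (correlations of -0.07, 0.03 and -0.06). Whether they came from the same experiment is not stated. The replicate block cannot change a log2 ratio in this balanced design. With it, the calls of the SPL probes did not change, and the calls over all probes in Ldn/KU-2025 minus WT went from 366 up and 74 down to 143 and 30. The fit of 2 lines gave 529 and 113 there, normexp 83 and 26, a 2-fold threshold 851 and 160, and leaving out single arrays 61 to 529 up and 15 to 113 down. In crt/KU-2025 against the Langdon dwarf line, 3553 up and 3774 down became 1622 and 2158 with normexp, 6785 and 5837 at 2-fold, and 1912 and 2646 with that t-test. The dimness of MUGEST2003_23lib_Contig14620_504 limits it to a bound.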
